A study of Mus musculus with 6 samples.

Results

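The Wnt pathway was examined in spontaneous NT3 tumors through 52 of the 23358 gene entries of the deposited count table. They were every entry whose symbol begins with Wnt, Fzd, Sfrp, Dkk or Rspo and goes on with a digit, together with Ctnnb1, Axin2, Lef1, Tcf7, Lrp5, Lrp6, Lgr5, Lgr6, Nkd1, Porcn and Wif1. The members comprised 19 Wnt ligands, Porcn, 10 Frizzled receptors, 2 coreceptors, 4 R-spondins with 2 of their receptors, 4 secreted Frizzled-related proteins (SFRP), 4 Dickkopf proteins, Wif1, β-catenin (Ctnnb1), 2 TCF/LEF factors and the feedback inhibitors Axin2 and Nkd1.

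RNA was sequenced from 6 tumors of 6 female mice, 3 of each of 2 lines. All carried the NT3 allele, a form of NF-κB-inducing kinase (NIK) without its TRAF3-binding domain, placed behind a loxP-flanked STOP cassette in the ROSA26 locus of C57Bl/6J mice. In Osx-Cre;NT3 mice the cassette is removed by the Osx1-GFP::Cre transgene, a Tet-OFF allele of the osteoblast lineage kept on C57Bl/6J mixed with CD1, with doxycycline chow given until weaning. In FSP1-Cre;NT3 mice it is removed by a Cre under the S100a4 promoter, from an FVB/n background, which is active in fibroblasts of many organs and also in myeloid cells. Tumors 13, 18 and 25, named by mouse number, were Osx-Cre;NT3 trunk tumors with latencies of 150, 168 and 115 days. Among the FSP1-Cre;NT3 tumors, 27 and 36 were perineal and 29 was from the trunk. Their latencies were 101 days in tumor 27, 72 days in tumor 29 and 52 days in tumor 36. Line, strain background, doxycycline chow and latency cannot be told apart here, and both perineal tumors were FSP1-Cre;NT3. The paper also reports a lower average RNA integrity score for the Osx-Cre;NT3 than for the FSP1-Cre;NT3 tumors. The part of RNA quality in the results was not tested. No tumor without the NT3 allele and no normal tissue was analysed here, so the levels have no untreated control.

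Total counts ranged from 51824408 to 163297772 per tumor, and 3 counts correspond to between 0.0184 and 0.0579 CPM (counts scaled to library size, adjusted by the TMM method except for this limit, which uses total counts alone). CPM was used to compare tumors for 1 gene, and RPKM, the deposited reads scaled to gene length and library size, to compare genes. Marker genes of several cell types were present. The 7 basal keratinocyte genes summed to 5926 to 14714 CPM and the 8 fibroblast genes to 5355 to 15298 CPM, while the 6 osteoblast genes summed to 5.35 to 11.0 CPM, most of it Runx2, with Sp7 and Bglap at no more than 0.282 and 0.125 CPM. In bulk tumors a change in the number of cells of a type and a change in RNA per cell cannot be told apart. Tumor 36 stood apart in its markers, with 4819 CPM of simple epithelium genes against 710 to 1288 CPM in the other 5 tumors. The list of smooth muscle and myoepithelium genes had 2713 CPM against 250 to 528 CPM, and adipocyte genes 134 CPM against 2.53 to 38.2 CPM. Hair follicle genes were also highest there, at 539 CPM against 30 to 219 CPM. So were suprabasal keratinocyte genes (886 against 53.9 to 451 CPM) and leukocyte genes (810 against 247 to 487 CPM). The basal keratinocyte, fibroblast, endothelial, dermal papilla, skeletal muscle and osteoblast sums were not highest there. The ribosomal precursor Rn45s took 13.3% of the counts in tumor 36 and 10.2% in tumor 29, against 5.28% to 7.65% in the other 4, and its part in the results was not tested. Results that rest on tumor 36 are therefore given without it as well.

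Wnt ligands are secreted lipid-modified glycoproteins, acylated by Porcn and released from the cell with Wls. In the canonical branch they bind a Frizzled receptor together with Lrp5 or Lrp6, which stops the destruction complex from degrading β-catenin, so that it enters the nucleus and works with TCF/LEF factors on targets such as Axin2. SFRP proteins and Wif1 bind the ligands, Dkk1 blocks the coreceptors, and R-spondins, through Lgr receptors, keep Frizzled receptors on the surface. In skin the pathway is known for hair follicle formation and for the signals that pass between epidermis and dermis.

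Of the 19 ligands, 4 carried most of the message. Wnt10a had 56.0 ± 19.2 RPKM (SD, n = 6 tumors), Wnt4 47.1 ± 15.1 RPKM, Wnt7b 34.6 ± 16.3 RPKM and Wnt6 30.1 ± 12.0 RPKM. Together they made up between 79.5% of the summed ligand RPKM in tumor 36 and 93.0% in tumor 13, with a median of 89.0%. Wnt10a was above Wnt4 within each of the 6 tumors, although the ranges of the 2 genes over the tumors overlapped, as did those of Wnt7b and Wnt6. The next ligand, Wnt10b, had 5.88 ± 2.52 RPKM, followed by Wnt5a with 4.40 ± 2.26 RPKM and Wnt11 with 2.86 ± 1.08 RPKM, which did not differ beyond their spread. All 3 lay below the lowest tumor of Wnt6.

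In CPM, Wnt10a, an epidermal and tooth ligand, was at 172, 95.8 and 172 in tumors 13, 18 and 25 and at 144, 172 and 64.7 in tumors 27, 29 and 36. Wnt4, which also acts in kidney and mammary gland, had 262, 184 and 269 CPM in the Osx-Cre;NT3 tumors and 253, 276 and 101 CPM in the FSP1-Cre;NT3 tumors, in the same order. For both genes tumor 36 was lowest and tumor 18 next, and the lines overlapped. Wnt7b, an epithelial ligand, was at 224, 137 and 336 CPM in Osx-Cre;NT3 tumors and at 190, 175 and 77.8 CPM in FSP1-Cre;NT3 tumors. Wnt6 had 110, 60.2 and 98.5 CPM against 94.2, 75.1 and 27.4 CPM. All 4 leading ligands therefore had their lowest level in tumor 36. The summed level of the basal keratinocyte genes was also the lowest of the 6 there, at 5926 CPM against 10134 to 14714 CPM. Most of that sum was Krt5, Krt14 and Krt15, which were lowest in tumor 36, as was Trp63. Itga6, Itgb4 and Col17a1 were instead lowest in tumor 18. The part of basal keratinocytes in the ligand levels was not tested.

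Wnt5a, the main ligand of the β-catenin-independent branch, had another order. Its levels were 15.0, 16.7 and 17.1 CPM in tumors 13, 18 and 25, 39.4 CPM in tumor 27, 17.9 CPM in tumor 29 and 35.3 CPM in tumor 36. The 4 trunk tumors thus lay close together, and both perineal tumors lay above them. Wnt2b, a canonical ligand, was at 1.28, 2.85 and 3.35 CPM in the Osx-Cre;NT3 tumors and at 3.59, 1.72 and 9.04 CPM in tumors 27, 29 and 36.

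The other ligands ranged from 16.2 CPM on average for Wnt10b (7.53 to 25.6 CPM) to 0 for Wnt1. Wnt11, Wnt3a, Wnt9a and Wnt5b had means between 3.97 and 9.97 CPM, and Wnt2, Wnt16, Wnt8a, Wnt3, Wnt8b, Wnt9b and Wnt7a had means of at most 0.326 CPM. Wnt1 had no count in any tumor, which with the depth given allows up to 0.0184 CPM in tumor 18 and 0.0579 CPM in tumor 13. That limit is meant for counting error only, and it is too low because all deposited counts were even. Porcn, the acyltransferase that all of these ligands need, varied little, with 6.42, 5.40 and 5.55 CPM in Osx-Cre;NT3 tumors and 6.26, 7.75 and 6.91 CPM in FSP1-Cre;NT3 tumors.

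Several ligand genes are neighbours. Wnt6 and Wnt10a lie 6699 bases apart on chromosome 1 and were both among the 4 leading ligands, with mean levels of 30.1 and 56.0 RPKM. Wnt3a and Wnt9a, 16178 bases apart on chromosome 11, had 2.09 and 1.60 RPKM, and Wnt9b and Wnt3, 24353 bases apart on the same chromosome, had 0.0295 and 0.0828 RPKM. The exception was the pair on chromosome 15, where Wnt10b had 5.88 RPKM and Wnt1, 11706 bases away, had 0. The 250 bases before the RefSeq start of these 2 genes (GRCm38.p6) are shown because they lie side by side and 1 of them had no count. Capitals mark a κB-like string, GGGA followed by any 4 bases and CC, searched on both strands, which occurred in the Wnt10b window and not in the Wnt1 window.
Wnt10b promoter, chr15:98778151-98778400, minus strand: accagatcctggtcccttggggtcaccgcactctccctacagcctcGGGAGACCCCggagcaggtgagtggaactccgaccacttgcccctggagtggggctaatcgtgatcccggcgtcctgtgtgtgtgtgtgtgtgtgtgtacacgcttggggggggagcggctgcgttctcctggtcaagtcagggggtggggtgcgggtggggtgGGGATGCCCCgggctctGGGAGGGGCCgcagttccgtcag
Wnt1 promoter, chr15:98789607-98789856, plus strand: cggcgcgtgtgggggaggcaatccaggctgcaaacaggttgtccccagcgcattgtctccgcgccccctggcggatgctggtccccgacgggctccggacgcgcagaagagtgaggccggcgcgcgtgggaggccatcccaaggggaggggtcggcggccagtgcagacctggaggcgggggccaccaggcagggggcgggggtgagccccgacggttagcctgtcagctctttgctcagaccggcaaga
The string was present in 20.7% of all 32851 RefSeq promoter windows of 300 bases (250 before and 50 after the start) and in 45.2% of the 42 windows of the 34 members with an entry. The leading ligands Wnt10a and Wnt7b had no entry, so of the leading ligands only Wnt4 and Wnt6 could be examined. Among the ligands with an entry, the string was found at high and at low levels. The windows of the low ligands Wnt3, Wnt8b, Wnt9b and Wnt16 held it, as did those of Wnt6, Wnt3a, Wnt2b and Wnt5b. Those of the leading ligand Wnt4, of Wnt9a and Wnt11 and of the low ligands Wnt2 and Wnt7a did not. The member windows were also richer in G and C, with a median of 67.5% against 52.7%, and a match is a description of the letters, not a binding site.

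**Figure D1:**
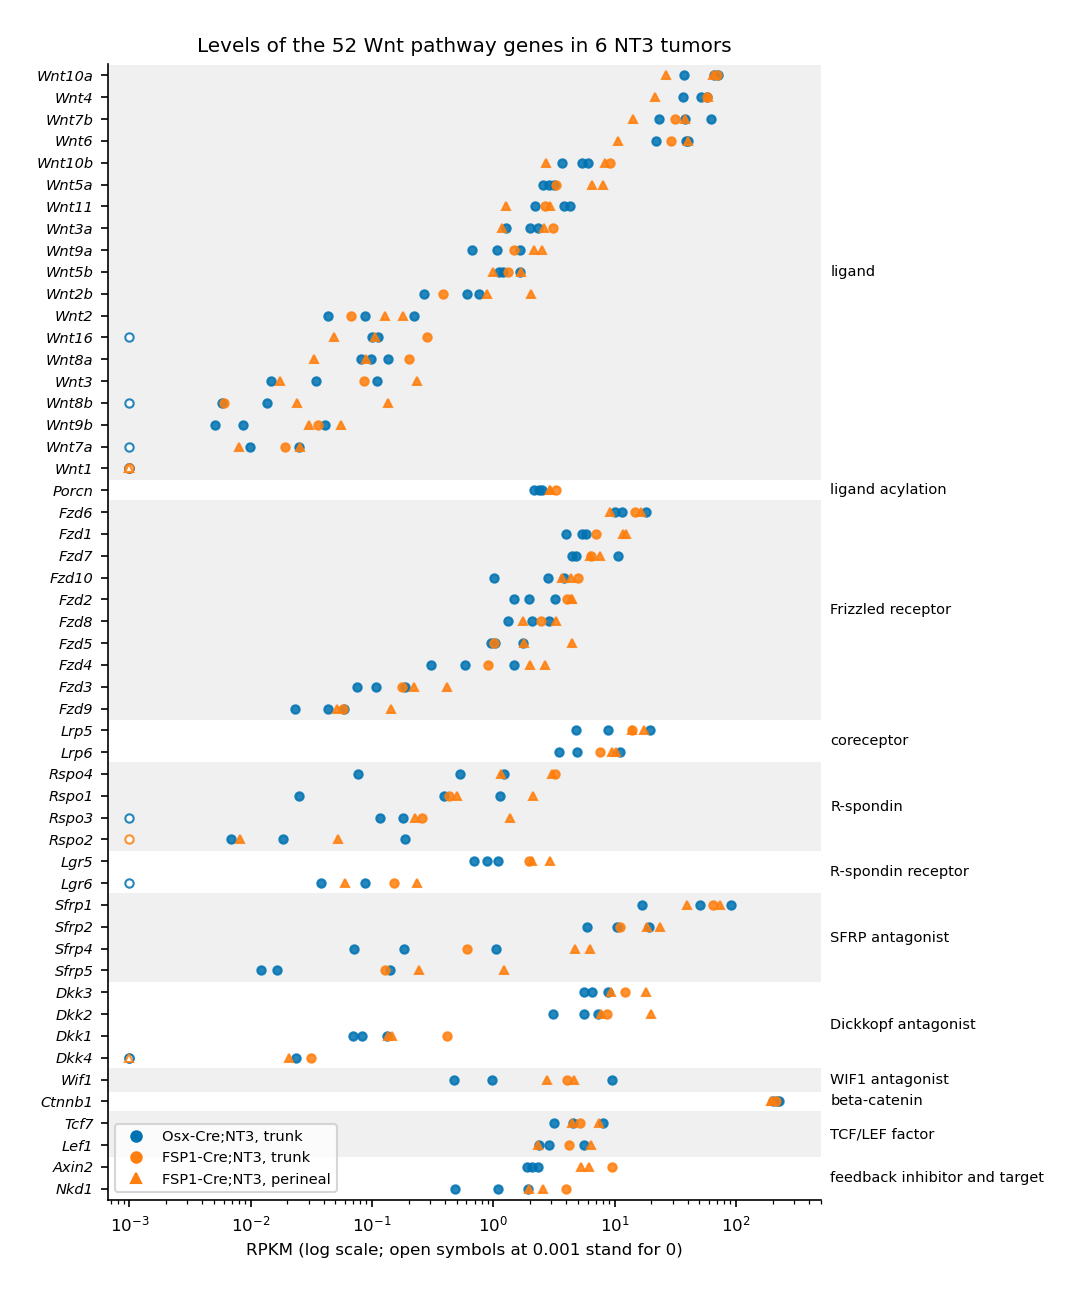
RPKM (log axis) of each of the 52 members in each of the 6 tumors, grouped by role and ordered by mean, with Osx-Cre;NT3 tumors in blue, FSP1-Cre;NT3 tumors in orange, trunk tumors as circles and perineal tumors as triangles. Ctnnb1 at a mean of 209 RPKM, Sfrp1 and Wnt10a at 56.0 RPKM each and Wnt4 at 47.1 RPKM lead, while open symbols mark values of 0, which Wnt1 had in each tumor.

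The plot of RPKM by role shows that receptors were spread more evenly than ligands. Fzd6, a Frizzled receptor tied to planar cell polarity and hair orientation, was the highest with 13.3 RPKM, ahead of Fzd1 and Fzd7. It took from 31.7% to 42.3% of the summed Frizzled RPKM in 5 tumors and 20.2% in tumor 36, where Fzd1 led with 27.5%. Fzd6 had 63.8, 55.0 and 92.5 CPM in tumors 13, 18 and 25 and 77.1, 75.8 and 47.1 CPM in tumors 27, 29 and 36, with overlapping lines. In CPM, Fzd1 was at 23.1, 33.2 and 29.2 in tumors 13, 18 and 25 and at 57.8, 38.8 and 67.8 in tumors 27, 29 and 36. Each FSP1-Cre;NT3 tumor was thus above each Osx-Cre;NT3 tumor, with the 2 perineal tumors highest. Fzd7 had 30.7, 28.5 and 63.2 CPM against 41.1, 38.7 and 37.6 CPM, with no such separation.

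Fzd2, a receptor used by Wnt5a among others, was at 9.56, 15.4 and 6.62 CPM in Osx-Cre;NT3 tumors and at 18.3, 18.3 and 19.5 CPM in FSP1-Cre;NT3 tumors, without overlap. Fzd4, known as the norrin receptor of vessels, had 2.86, 1.49 and 6.65 CPM in tumors 13, 18 and 25 and 8.38, 4.16 and 12.2 CPM in tumors 27, 29 and 36, so that the perineal tumors were above the trunk tumors. Fzd5 was at 9.52, 8.78 and 14.9 CPM in Osx-Cre;NT3 tumors and at 14.1, 8.72 and 37.9 CPM in tumors 27, 29 and 36, with tumor 36 far above the others. Fzd10, Fzd8, Fzd3 and Fzd9 had means of 12.9, 9.51, 3.12 and 0.166 CPM. Fzd5, Fzd6, Wnt5a, Wnt7b, Wnt11, Sfrp2, Rspo3, Lef1, Ctnnb1 and Axin2 share exonic bases with another annotated gene, mostly on the opposite strand, and the strandedness of the counts is not given in the sources used here.

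The coreceptor Lrp5 was at 61.2, 32.5 and 124 CPM in Osx-Cre;NT3 tumors and at 101, 90.4 and 88.7 CPM in FSP1-Cre;NT3 tumors. Lrp6 had 60.5, 42.6 and 128 CPM against 101, 89.0 and 120 CPM. For both, the Osx-Cre;NT3 tumors spanned the whole range, with tumor 18 lowest and tumor 25 highest of the 6. Scaled to length, Lrp5 had 13.0 ± 5.41 RPKM and Lrp6 7.81 ± 3.11 RPKM, which overlapped.

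R-spondins were low and uneven. Rspo4, known for its part in nail formation, was at 3.89, 1.66 and 0.225 CPM in tumors 13, 18 and 25 and at 8.17, 9.57 and 3.38 CPM in tumors 27, 29 and 36. Rspo1 had 0.952, 2.75 and 0.0563 CPM against 1.04, 1.00 and 4.85 CPM, and Rspo3 had 0.373, 0.572 and 0 CPM against 0.614, 0.770 and 4.03 CPM. Tumor 25 was the lowest of the 6 for each of these 3 genes. For Rspo3 the lines did not overlap, but the difference was small except in tumor 36. Rspo2 reached 0.818 CPM in tumor 18 and at most 0.219 CPM elsewhere, and was too low to test.

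Lgr5, an R-spondin receptor and a marker of stem cells in hair follicle and gut, was at 4.35, 6.81 and 5.15 CPM in the Osx-Cre;NT3 tumors. In tumors 27, 29 and 36 it was at 11.1, 11.6 and 17.1 CPM, above each Osx-Cre;NT3 tumor. Lgr6, a related receptor of skin stem cells, was at 0, 0.416 and 0.169 CPM against 0.246, 0.693 and 1.06 CPM, so that 2 of the FSP1-Cre;NT3 tumors were above the Osx-Cre;NT3 range.

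Among the secreted antagonists, Sfrp1 had as much message per length as the leading ligand, at 56.0 ± 26.4 RPKM. Its levels were 292, 96.9 and 493 CPM in tumors 13, 18 and 25 and 363, 353 and 214 CPM in tumors 27, 29 and 36. Sfrp2 was next with 14.8 ± 6.69 RPKM, at 15.7, 50.5 and 25.6 CPM against 53.7, 27.9 and 45.9 CPM. Sfrp1 made up 60.3% to 89.6% of the summed SFRP RPKM in 5 tumors and 45.3% in tumor 18, where Sfrp2 took 51.5%.

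Sfrp4, a stromal member of the family, differed widely between tumors, with 0.166, 2.47 and 0.394 CPM in Osx-Cre;NT3 tumors. It had 9.39 CPM in tumor 27, 1.33 CPM in tumor 29 and 13.6 CPM in tumor 36, so that the 2 perineal tumors were above the 4 trunk tumors. Sfrp5, at lower levels, was at 0.0414, 0.351 and 0.0282 CPM in Osx-Cre;NT3 tumors and at 0.522, 0.308 and 2.88 CPM in FSP1-Cre;NT3 tumors, with the same 2 tumors highest. The adipocyte genes shared this order, with 38.2 and 134 CPM summed over 6 genes in tumors 27 and 36 and 2.53 to 13.4 CPM in trunk tumors, and their part in the 2 SFRP results was not tested.

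**Figure D2:**
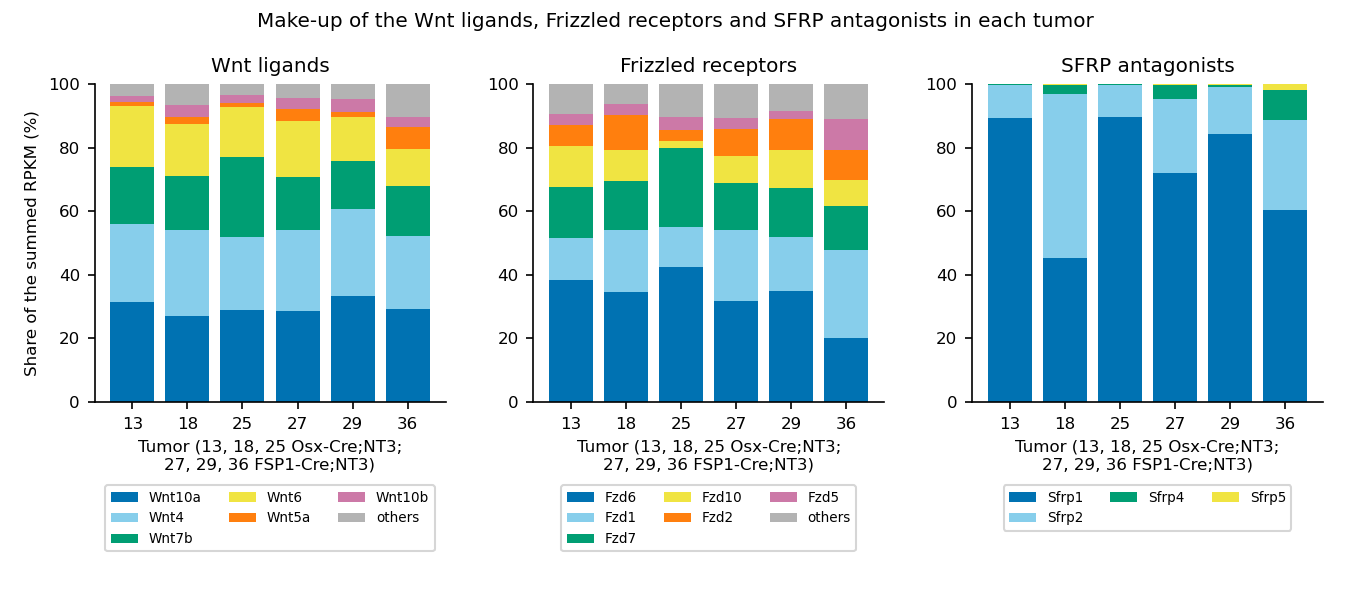
Share of the summed RPKM (percent) taken by each Wnt ligand, Frizzled receptor and SFRP antagonist in each tumor, as stacked bars that add up to 100% (the highest genes in color, the remaining ones in gray). Wnt10a, Wnt4, Wnt7b and Wnt6 fill from 79.5% to 93.0% of the ligand bars, and the SFRP bar of tumor 18 is the one in which Sfrp2 (51.5%) is above Sfrp1 (45.3%).

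The stacked bars show the mix of ligands to be steadier than that of the SFRP genes, with Wnt10a between 27.2% and 33.3% of the ligand total in the 6 tumors. Of the Dickkopf proteins, Dkk3, a divergent family member, had 28.8, 39.3 and 23.3 CPM in tumors 13, 18 and 25 and 35.4, 51.0 and 75.2 CPM in tumors 27, 29 and 36. Dkk2 was at 27.3, 35.7 and 14.1 CPM against 83.0, 40.0 and 35.5 CPM. Tumor 18 overlapped the FSP1-Cre;NT3 range for both genes, through tumor 27 for Dkk3 and tumor 36 for Dkk2. Dkk1, the classical coreceptor blocker, was low, at 0.207, 0.390 and 0.225 CPM in Osx-Cre;NT3 tumors and 0.368, 1.15 and 0.375 CPM in FSP1-Cre;NT3 tumors, with tumor 29 highest. Dkk4 was at most 0.0513 CPM. Wif1, which binds ligands directly, varied widely, with 2.90, 27.9 and 1.30 CPM in Osx-Cre;NT3 tumors and 11.7, 11.3 and 7.63 CPM in FSP1-Cre;NT3 tumors.

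β-catenin itself was among the most abundant transcripts, ranked 245th of 23358 entries with 209 ± 11.7 RPKM. It was at 1051, 971 and 1001 CPM in tumors 13, 18 and 25 and at 818, 964 and 872 CPM in tumors 27, 29 and 36, and the highest tumor exceeded the lowest 1.29-fold. RNA levels do not report its protein or its place in the cell. The TCF/LEF factors were at similar levels in both lines. Tcf7 had 9.36, 13.5 and 22.0 CPM against 18.8, 14.5 and 12.3 CPM, and Lef1 9.32, 7.78 and 17.0 CPM against 17.7, 13.1 and 7.16 CPM.

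Axin2, a scaffold of the destruction complex and a feedback target of canonical signaling in many tissues, separated the lines most clearly. It was at 13.2, 10.6 and 11.0 CPM in the Osx-Cre;NT3 tumors, and at 29.4, 50.3 and 27.6 CPM in tumors 27, 29 and 36. The FSP1-Cre;NT3 trunk tumor was the highest, and the lowest FSP1-Cre;NT3 tumor was above each Osx-Cre;NT3 tumor. Nkd1, another feedback inhibitor, had 6.54, 11.4 and 2.65 CPM against 10, 22.0 and 14.1 CPM, with tumor 29 again highest but with overlap between tumors 18 and 27. Axin2 shares 105 exonic bases with an antisense gene, Gm11670, and the counts cannot tell their reads apart if strand was not used.

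The first question that the design allows is whether the tumors of the 2 Cre lines differ. By the quasi-likelihood test of edgeR, with p-values adjusted after Benjamini and Hochberg over 16415 genes, 0 of the 47 members tested passed an adjusted p of 0.05 and 0 of all genes did (0% called), the smallest adjusted p being 0.359 over all genes and 0.412 among members. The other 5 members, Wnt1, Wnt7a, Wnt8b, Dkk4 and Rspo2, were too low to test. At an unadjusted p under 0.05, 8 of 47 members (17.0%) stood out, all higher in FSP1-Cre;NT3 tumors, where 7.31% of all genes tested were past it in that direction, 3.47% in the other and 10.8% in either. They were Axin2, Lgr5, Fzd1, Wnt5a, Sfrp4, Fzd2, Dkk3 and Sfrp5. The median log2 fold change over the 47 members was 0.752, against 0.0146 over all genes tested, and 35 of the 47 were above 0 (51.1% of all genes).

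**Figure D3:**
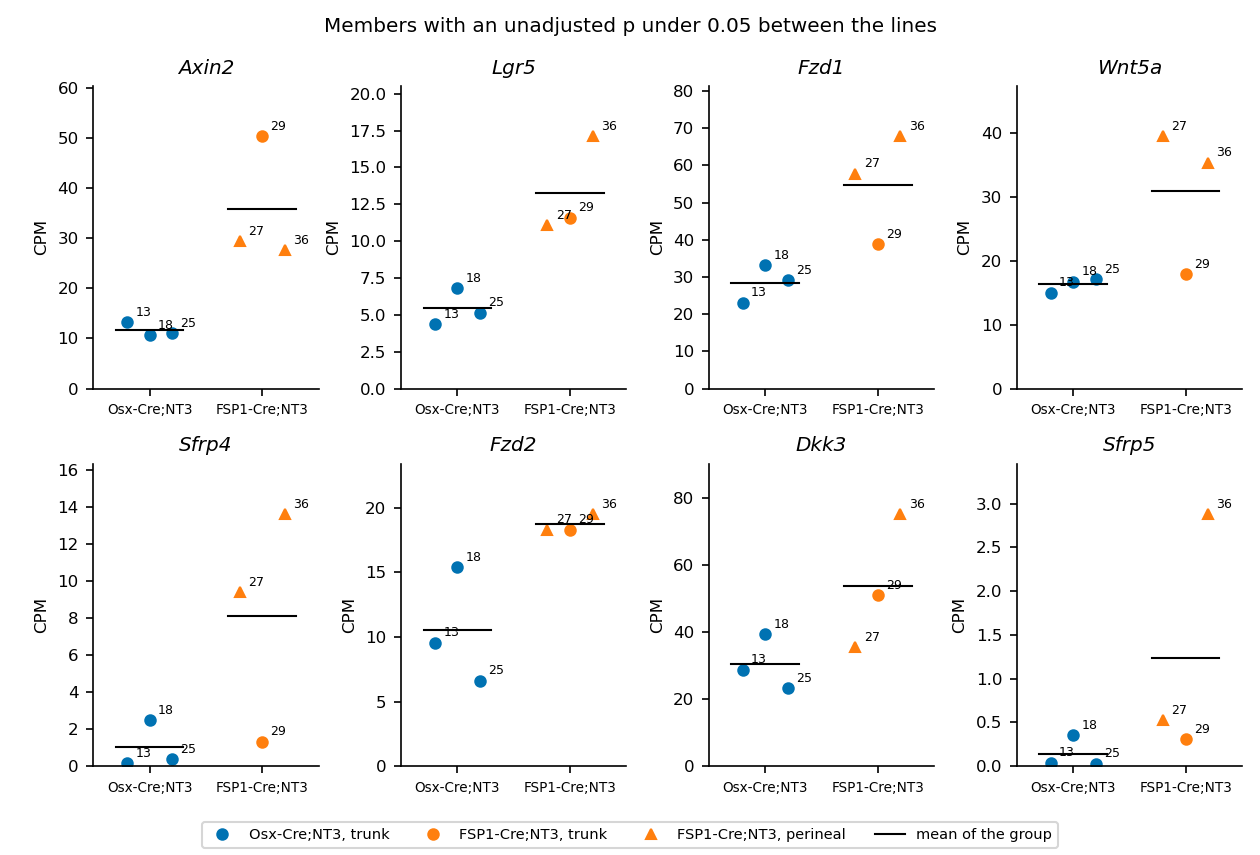
CPM in each tumor, labeled by number, of the 8 members with an unadjusted edgeR p under 0.05 between the lines, with Osx-Cre;NT3 on the left, FSP1-Cre;NT3 on the right, perineal tumors as triangles and the mean of each group as a line (each axis starts at 0). The groups do not overlap for Axin2, Lgr5, Fzd1, Wnt5a and Fzd2, and they overlap for Sfrp4, Dkk3 and Sfrp5, where tumor 36 is highest. The genes were chosen by p between the same lines, so the lack of overlap follows largely from that choice.

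As the plot of CPM by line shows, Axin2 had the lowest p. Its mean was 35.8 ± 12.6 CPM in FSP1-Cre;NT3 and 11.6 ± 1.38 CPM in Osx-Cre;NT3 tumors (SD, n = 3 each). The log2 fold change was 1.63 (standard error 0.30, edgeR adjusted p = 0.412), with an unadjusted edgeR p of 0.000997, and with DESeq2 it was 1.62 (adjusted p = 0.00032). Axin2 also stayed under an adjusted p of 0.05 with DESeq2 when any 1 tumor was left out, with adjusted p-values from 0.000353 to 0.00523 and fold changes on the log2 scale from 1.29 to 1.77. Between trunk tumors, with site as a covariate, the log2 difference of tumor 29 from the 3 Osx-Cre;NT3 tumors was 2.12 (standard error 0.29, edgeR adjusted p = 1). Tumor 29 alone stands for FSP1-Cre;NT3 there and had the highest Axin2 level of the 6, so this value describes that tumor.

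Lgr5 averaged 13.3 ± 3.34 CPM in FSP1-Cre;NT3 and 5.44 ± 1.25 CPM in Osx-Cre;NT3 tumors, a log2 fold change of 1.29 (standard error 0.32, edgeR adjusted p = 0.441). DESeq2 gave an adjusted p of 0.0117, which rose to 0.109 without tumor 36 and to 0.15 without tumor 13. Fzd1 had a log2 fold change of 0.94 (standard error 0.27, edgeR adjusted p = 0.458, DESeq2 adjusted p = 0.0824). Axin2, Lgr5 and Fzd1 were the 3 members at an unadjusted edgeR p under 0.05 in each of the 6 fits that left out 1 tumor, but with site as a covariate Axin2 alone of them was. Without tumor 36, 5 members were (Axin2, Dkk2, Fzd1, Lgr5 and Wnt10b), where 4.29% of genes were higher at that threshold, and the members' median was 0.41.

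In the same contrast of tumor 29 with the 3 Osx-Cre;NT3 trunk tumors, the log2 differences were 1.09 for Lgr5 (standard error 0.46), 0.44 for Fzd1 (0.33), 0.14 for Wnt5a (0.30) and 0.38 for Sfrp4 (1.34), compared with 1.29, 0.94, 0.93 and 2.98 over the 6 tumors. With 1 FSP1-Cre;NT3 trunk tumor and no Osx-Cre;NT3 perineal tumor, line and site cannot be told apart for these genes. For the 4 leading ligands the log2 fold changes were -0.21 for Wnt10a, -0.18 for Wnt4, -0.65 for Wnt7b and -0.45 for Wnt6. Their standard errors were 0.39 to 0.46. Without tumor 36 the log2 fold changes of Wnt10a, Wnt4, Wnt7b and Wnt6 were 0.11, 0.15, -0.35 and -0.08. Ligands as a role had 8 of 16 genes above 0 with a median of 0.08, Frizzled receptors had 8 of 10 with a median of 0.85 and SFRP antagonists 4 of 4 with a median of 1.73. Without tumor 36 these medians were 0.13, 0.45 and 0.93, between trunk tumors they were 0.22, 0.33 and 0.32, and differences between roles were not tested.

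The CPM ranges of the lines did not overlap for 6 members that were higher in FSP1-Cre;NT3 tumors (Axin2, Lgr5, Fzd1, Fzd2, Wnt5a and Rspo3; 9.03% of all genes tested) and for 1 that was lower, Ctnnb1 (7.97%). The 6 members are 12.8% of the 47. Ctnnb1 averaged 884 ± 73.9 CPM in FSP1-Cre;NT3 and 1008 ± 40.6 CPM in Osx-Cre;NT3 tumors, a log2 fold change of -0.19 (standard error 0.20, edgeR adjusted p = 0.696). With DESeq2, 412 of 16098 genes passed an adjusted p of 0.05 (2.56%), and Axin2 and Lgr5 were the members among them. That count was 191 without tumor 36, 228 without tumor 13, 713 without tumor 29 and 3623 without tumor 25. Fibroblast genes moved with the line. Summed over 8 genes they were at 5355 to 6949 CPM in Osx-Cre;NT3 and 12025 to 15298 CPM in FSP1-Cre;NT3 tumors, 6 of the 8 had an unadjusted p under 0.05 and none was at 0 in all tumors. The 5 endothelial genes were at 101 to 293 against 304 to 431 CPM. The part of these cells in the differences of Axin2, Lgr5, Fzd1 and the other members was not tested.

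The second question is whether perineal tumors differ from trunk tumors. This comparison shares all its libraries with the first, and tumors 27 and 36 stand on the same side in both, so the 2 are not independent. Again 0 of 47 members and 0 of 16415 genes (0% called) passed an adjusted p of 0.05 with edgeR, the smallest being 0.287. At an unadjusted p under 0.05 there were 7 members (14.9%), all higher in the perineal tumors, beside 8.61% of all genes in that direction and 10.2% in either. They were Wnt5a, Fzd1, Sfrp4, Fzd5, Sfrp5, Wnt2b and Fzd4. The members' median log2 fold change was 0.39, against -0.0221 over all genes, and 31 of the 47 were above 0 (48.2% of all genes).

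Wnt5a had the lowest p of the members. Its mean was 37.4 ± 2.91 CPM in the 2 perineal and 16.7 ± 1.23 CPM in the 4 trunk tumors. The log2 fold change was 1.16 (standard error 0.20, edgeR adjusted p = 0.287), with an unadjusted edgeR p of 0.000656. DESeq2 gave 1.15 (adjusted p = 1.87e-05), and 1.21 without tumor 36 (adjusted p = 0.186). Within FSP1-Cre;NT3, with line as a covariate, the perineal tumors exceeded tumor 29, the 1 trunk tumor of that line, by 1.06 on the log2 scale (standard error 0.34, edgeR adjusted p = 1). Wnt5a shares 355 exonic bases with an antisense gene, Gm2670.

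Sfrp4 averaged 11.5 ± 2.97 CPM in perineal and 1.09 ± 1.05 CPM in trunk tumors, with a log2 fold change of 3.38 (standard error 0.91, edgeR adjusted p = 0.308, DESeq2 adjusted p = 0.0118). Fzd1 had 62.8 ± 7.03 against 31.1 ± 6.62 CPM and a log2 fold change of 1.01 (standard error 0.25, edgeR adjusted p = 0.293, DESeq2 adjusted p = 0.0342), which was 0.69 (standard error 0.37) with line as a covariate. Wnt5a, Sfrp4 and Fzd1 were the members among the 552 of 16341 genes that DESeq2 called (3.38%). The log2 fold changes of Wnt2b, Fzd5 and Sfrp5 were 1.45, 1.31 and 3.16, and they were 0.64, 0.43 and 1.47 without tumor 36. Without that tumor, tumor 27 alone stands for the perineal site, and the edgeR log2 differences of Fzd1, Sfrp4 and Wnt5a were 0.90, 3.09 and 1.24. The count of genes called by DESeq2 was 286 without tumor 13.

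The ranges of the 2 sites did not overlap for 8 members that were higher in perineal tumors (Wnt5a, Fzd1, Sfrp4, Sfrp5, Wnt2b, Fzd4, Fzd3 and Wnt9a; 9.98% of all genes) and for 2 that were lower, Ctnnb1 and Wnt8a (9.57%). Axin2 and Nkd1 had log2 fold changes of 0.42 and 0.18 (standard errors 0.67 and 0.73), and within FSP1-Cre;NT3 the log2 difference of Axin2 was -0.82 (standard error 0.33), since tumor 29 was its highest. The levels of the leading ligands in the perineal pair rested on tumor 36. With tumor 27 left out, so that tumor 36 alone stood for the site, Wnt4, Wnt6, Wnt7b, Wnt10a and Wnt11 had an unadjusted p under 0.05, with log2 differences of -1.31 for Wnt4 and -1.66 for Wnt6, beside 4.01% of all genes that were lower at that threshold in this fit. With tumor 36 left out those of Wnt4 and Wnt6 were 0.03 and 0.13, and those of Wnt10a and Wnt7b were -0.08 and -0.20. The adipocyte list moved with the site, with 6 of 6 genes at an unadjusted p under 0.05 and no gene at 0 in all tumors. Of the smooth muscle and myoepithelium genes 6 of 7 had an unadjusted p under 0.05, but their summed level was high in tumor 36 alone. It was 250 to 528 CPM in trunk tumors, 335 CPM in tumor 27 and 2713 CPM in tumor 36. Of the simple epithelium genes 4 of 7 were higher at an unadjusted edgeR p under 0.05. They summed to 883 CPM in tumor 27 and 4819 CPM in tumor 36, against 710 to 1288 CPM in trunk tumors. Of the leukocyte genes 4 of 7 were higher, with sums of 487 and 810 CPM against 247 to 370 CPM. Each of the other marker lists had at most 2 such genes. The part of these cell types in the site differences was not tested.

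**Figure D4:**
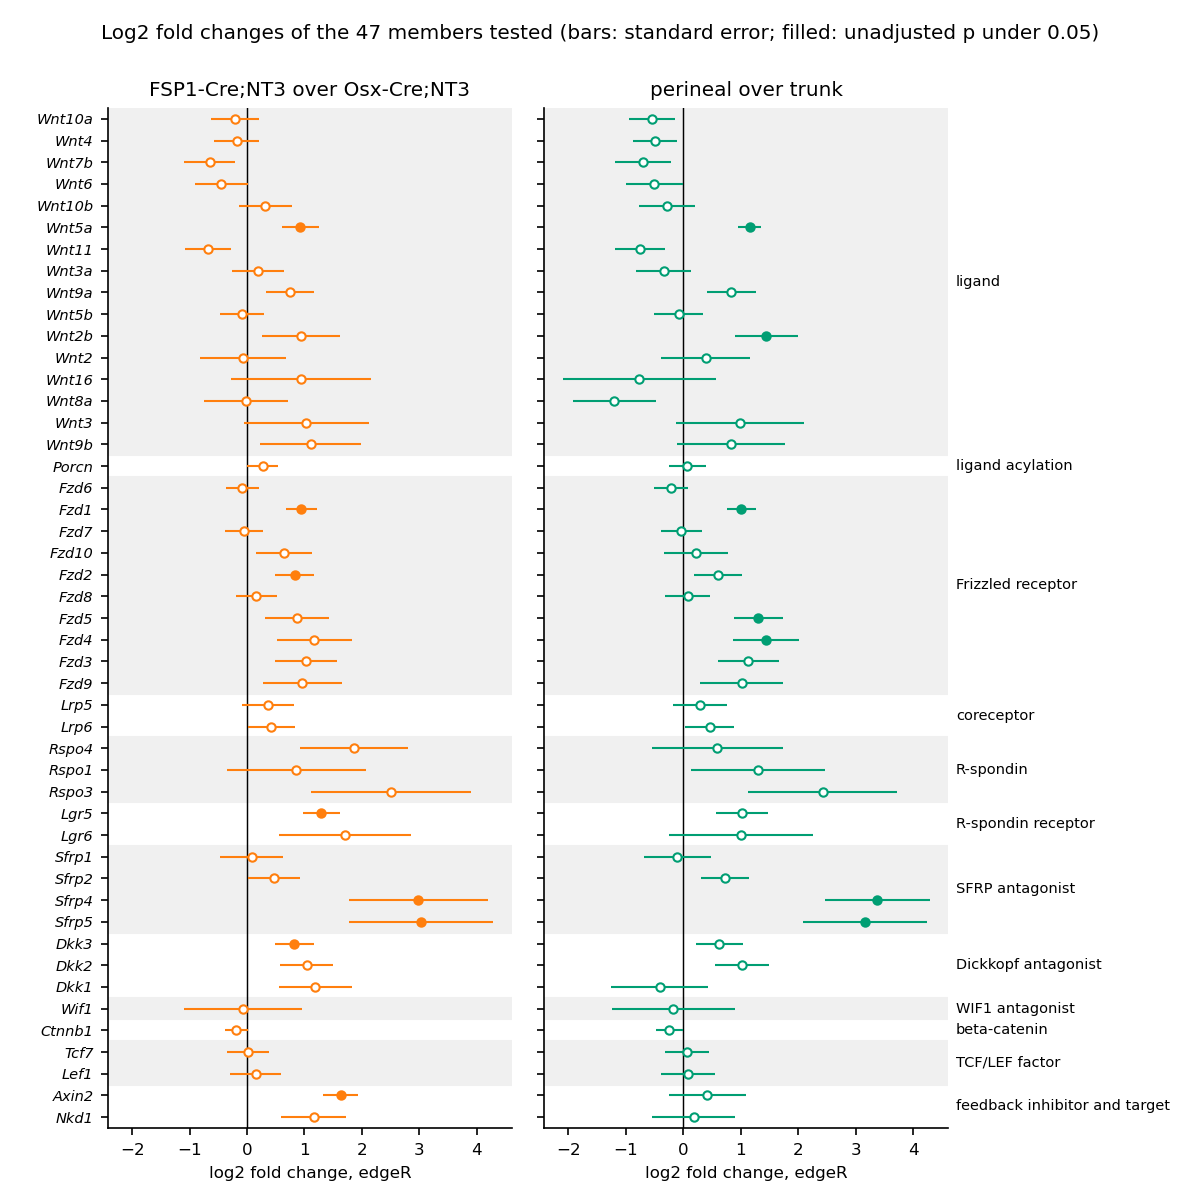
Log2 fold changes from edgeR with standard errors (bars) of the 47 members tested, for FSP1-Cre;NT3 over Osx-Cre;NT3 on the left and perineal over trunk on the right, with filled points at an unadjusted p under 0.05. Axin2 is at 1.63 on the left and 0.42 on the right, Wnt5a at 0.93 and 1.16, and the leading ligands lie below 0 in both panels.

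The plot of log2 fold changes sets both comparisons side by side. Roles with wide bars, such as the R-spondins with standard errors from 0.94 to 1.39 between the lines, leave room for differences of either sign, and a p above the threshold does not show equal levels.

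Genes of the pathway other than the members were taken from a list of 72 symbols, of which 71 were found and 69 tested. Between the lines 0 passed an adjusted p of 0.05 with edgeR, 13 were higher and 1 was lower at an unadjusted p under 0.05 in FSP1-Cre;NT3 tumors, and 5 passed with DESeq2. Over all genes tested the shares were 7.31% higher, 3.47% lower and 2.56% by DESeq2. Igfbp4 and Draxin had the lowest unadjusted edgeR p of this list. Igfbp4, a binding protein of insulin-like growth factors that also antagonizes Wnt receptors, was at 73.1, 65.8 and 39.4 CPM in tumors 13, 18 and 25 and at 225, 207 and 260 CPM in tumors 27, 29 and 36. Its log2 fold change was 1.96 (standard error 0.27, edgeR adjusted p = 0.359, DESeq2 adjusted p = 5.13e-07).

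Apcdd1, a membrane inhibitor of the pathway in hair follicles, had 58.5, 98.2 and 32.7 CPM against 146, 301 and 149 CPM (log2 fold change 1.65, standard error 0.48). Draxin, listed as 2610109H07Rik, had 0.787, 1.30 and 0.760 CPM against 3.50, 3.80 and 9.47 CPM (2.55, standard error 0.55). The glypican Gpc6 was at 10.9, 13.0 and 9.35 CPM against 32.9, 21.3 and 21.6 CPM, and Apc2, a relative of Apc, at 0.166, 0.169 and 0.422 CPM against 1.04, 1.31 and 0.938 CPM. The lines did not overlap for these 5 genes, and these were the 5 with a DESeq2 adjusted p under 0.05. Tle2, a corepressor of TCF/LEF factors, was at 0.497, 1.09 and 1.24 CPM against 2.15, 3.92 and 2.34 CPM. Wls, the carrier that brings ligands to the surface, was the 1 gene lower at an unadjusted p under 0.05, with 348, 380 and 287 CPM in Osx-Cre;NT3 and 245, 235 and 193 CPM in FSP1-Cre;NT3 tumors (log2 fold change -0.59, standard error 0.20).

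**Figure D5:**
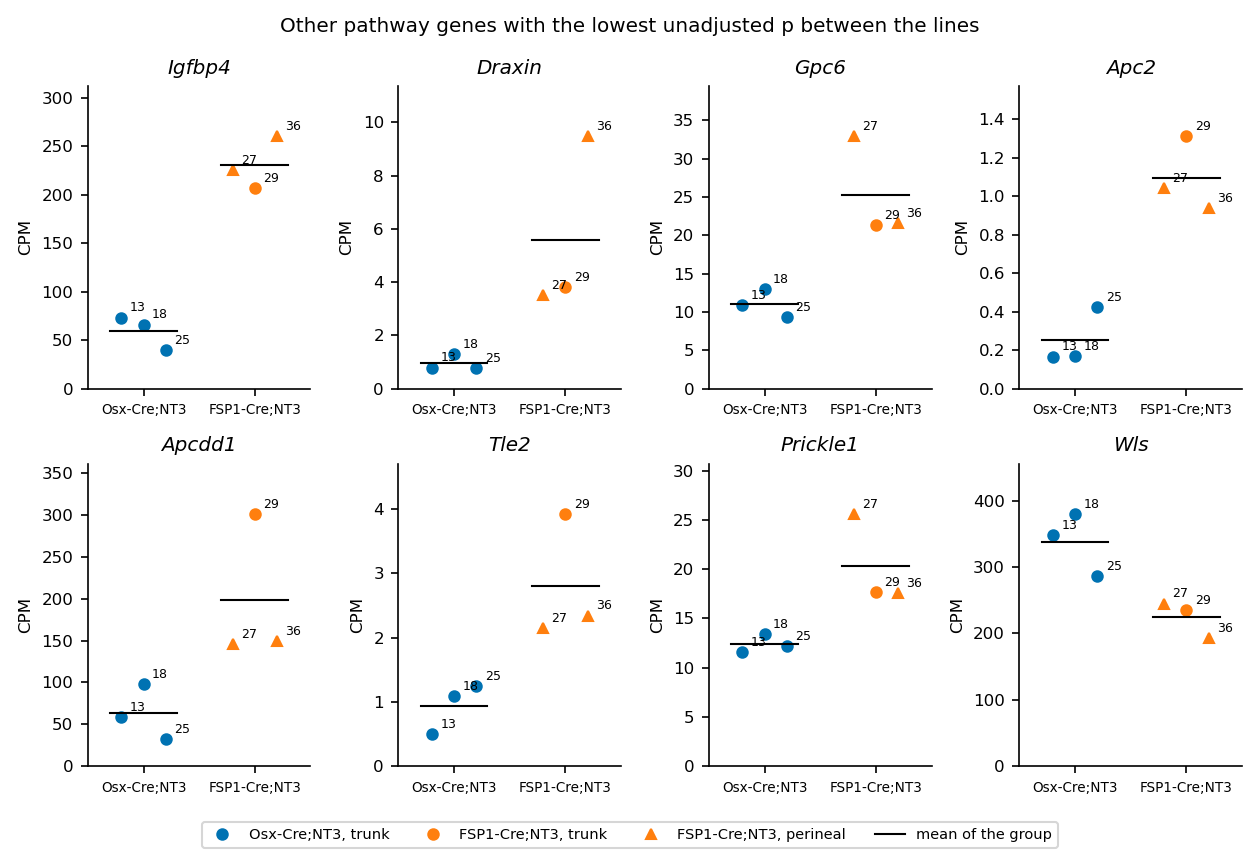
CPM in each tumor of the 8 listed pathway genes outside the member set with the lowest unadjusted edgeR p between the lines, drawn as in the plot of members by line (each axis starts at 0). The lines do not overlap for any of the 8, which follows largely from their choice by p, and Wls is the one with the higher level in Osx-Cre;NT3 tumors.

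As the plot of these genes shows, each of the 3 FSP1-Cre;NT3 tumors lay on the same side of the Osx-Cre;NT3 range. The genes were chosen by p between the same lines, so this separation follows largely from the choice. Over all genes tested, the lines did not overlap for 9.03% that were higher and 7.97% that were lower in FSP1-Cre;NT3 tumors. The list set up for other secreted antagonists held 8 genes. Among them were the membrane inhibitor Apcdd1 and Ndp, the norrin ligand of Fzd4, so it is not a list of secreted antagonists alone. The 8 genes summed to 124 to 186 CPM in Osx-Cre;NT3 and 405 to 541 CPM in FSP1-Cre;NT3 tumors. Most of it was Igfbp4 and Apcdd1, with Ndp at no more than 1.39 CPM. Of the 7 tested, 4 had an unadjusted edgeR p under 0.05. The 8 fibroblast genes moved the same way, from 5355 to 6949 CPM in Osx-Cre;NT3 to between 12025 and 15298 CPM in FSP1-Cre;NT3 tumors, and their part in this difference was not tested. The 10 tested genes of a list of other targets of the pathway had 0 at an unadjusted p under 0.05 and a median log2 fold change of 0.07. Over the 69 genes the median was 0.25.

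Between sites, 5 of the 69 genes were higher in perineal tumors at an unadjusted p under 0.05 and 0 lower, and 2 passed an adjusted p of 0.05 with DESeq2. These counts were not above the shares over all genes tested, which were 8.61% higher and 3.38% by DESeq2, so the genes are given for their own values. Ror1, a receptor of Wnt5a, was at 0.414, 0.650, 1.24 and 1.03 CPM in trunk tumors 13, 18, 25 and 29 and at 3.16 and 4.31 CPM in tumors 27 and 36 (log2 fold change 2.16, standard error 0.53, edgeR adjusted p = 0.292, DESeq2 adjusted p = 0.00908). Prickle2, of the planar cell polarity branch, had 2.48, 2.82, 3.38 and 3.41 CPM against 6.48 and 10.1 CPM (1.45, standard error 0.35, DESeq2 adjusted p = 0.0039). For both genes, as for Wnt5a, the perineal tumors lay above all 4 trunk tumors. Of the other listed receptors, Ror2, Ryk and Ptk7 overlapped between the sites, with log2 fold changes of 0.13, -0.09 and 0.01. Of the 9 listed planar cell polarity genes, 5 were above 0, with a median of 0.09. Tle4 was at 10.7 to 19.3 CPM in 5 tumors and at 55.0 CPM in tumor 36. Prickle1 had 11.6 to 17.7 CPM in trunk tumors against 25.6 and 17.6 CPM, a log2 fold change of 0.65 (standard error 0.28).

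Promoter windows of all members with an entry were searched for CTTTGA, the core of the TCF/LEF recognition sequence, on both strands (CTTTGAT, counted apart, contains it). It occurred in 5 of the 42 member windows (11.9%) and in 16.0% of all 32851, so the share among members was not above the background. Of the 8 members at an unadjusted p under 0.05 between the lines, 3 had an entry. The window of Fzd1 held the string once, that of Sfrp5 held the κB-like string alone, and that of Axin2 held neither. The 250 bases before the start are shown for Axin2 and Fzd1, the 2 of these members whose line difference was at an unadjusted p under 0.05 with any tumor left out, with CTTTGA or its reverse complement in capitals.
Axin2 promoter, chr11:108920099-108920348, plus strand: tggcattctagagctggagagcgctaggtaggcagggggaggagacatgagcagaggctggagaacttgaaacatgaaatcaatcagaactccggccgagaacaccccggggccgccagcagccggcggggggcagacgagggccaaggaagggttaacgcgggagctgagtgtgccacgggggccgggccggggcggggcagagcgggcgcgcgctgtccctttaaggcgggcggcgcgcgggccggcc
Fzd1 promoter, chr5:4758217-4758466, minus strand: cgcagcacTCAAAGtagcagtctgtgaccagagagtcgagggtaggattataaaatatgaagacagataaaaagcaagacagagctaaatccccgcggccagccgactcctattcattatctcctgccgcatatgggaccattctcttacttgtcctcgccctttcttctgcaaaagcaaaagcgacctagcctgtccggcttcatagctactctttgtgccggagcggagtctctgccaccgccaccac
The letters searched are not in this window of Axin2, which says nothing of other parts of the gene. Members without an entry in the promoter table were Wnt5a, Wnt7b, Wnt8a, Wnt10a, Porcn, Fzd2, Fzd3, Fzd6, Fzd8, Lrp5, Lrp6, Rspo2, Rspo3, Lgr5, Sfrp1, Sfrp4, Dkk3 and Dkk4.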

How the data were processed

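RNA-seq of 6 tumors, chosen by the study for low blood content, was analysed. The deposited tables hold read counts per gene and RPKM, both made by the authors on mm10. The study's methods name HISAT2 and featureCounts, whereas the submitters' processing notes list bcl2fastq, TopHat2 2.0.6 and HTSeq, and annotation and strandedness are not given in the sources used here. All counts were even, so counting intervals from them are too narrow.

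Counts were filtered with filterByExpr, scaled by TMM and fitted with glmQLFit and glmQLFTest of edgeR 4.0.16 in R 4.3.3 (16415 genes, common biological coefficient of variation 0.478), with Benjamini-Hochberg adjustment. Line was compared as 3 against 3 tumors and site as 2 against 4, each tumor being 1 mouse. DESeq2 1.42.0, other scalings and filters, halved counts, covariates and each tumor left out were alternatives, DESeq2 with a tumor left out having been added after the data were seen. The fits were tested on simulated data.

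The members and lists were chosen with earlier results of these data known. Every tumor's value is given for the 3 members of highest RPKM in a role, the 6 of largest fold change in each comparison, those with an unadjusted p under 0.05 and those with an adjusted p under 0.05 in any alternative, and for the 6 pathway genes of lowest p or any called. Promoter windows are from RefSeq (GRCm38.p6), in which 34 members matched, and overlaps between genes are from GENCODE.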

Additional observations from a re-analysis of the deposited data

Results flagged for a closer look

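In 3 of the 47 members tested, 1 tumor lay apart from the other 5 on the log2 CPM scale (prior count of 2) by a gap beyond Dixon's limit, and chance alone gives about 1 in 20, or 2.35 of 47. Fzd5 was highest in tumor 36, at 5.24 against 3.90 in the next tumor. Fzd10 was lowest in tumor 25, at 1.91 against 3.49 in the next. Dkk1 was highest in tumor 29, at 0.24 against -1.27 in the next.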

How the results depend on the processing

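With edgeR, 0 members were called in both comparisons under each alternative run. Over all genes, edgeR called 0 to 395 between sites when 1 tumor was left out (2 without tumor 25, 395 without tumor 27). DESeq2 called 412 genes and 2 members between lines and 552 genes and 3 members between sites. With DESeq2 and 1 tumor left out, the genes called between lines were 228, 516, 3623, 446, 713 and 191 without tumors 13, 18, 25, 27, 29 and 36, with 1 to 7 members, and those between sites were 286, 617, 627, 1317, 713 and 14 in the same order, with 0 to 6 members (the comparisons are the same without tumor 29). Why the tools differ was not tested. At an unadjusted p under 0.05 with edgeR, 5 to 13 members were higher and 0 lower between lines when a tumor was left out. In those fits 3.89% to 11.2% of all genes were higher and 1.15% to 14.7% lower. Between sites, leaving out 1 trunk tumor gave 5 to 9 members higher and 0 lower. Beside them 5.65% to 8.82% of genes were higher and 0.609% to 4.95% lower. Site fits without tumor 27 or 36 leave 1 perineal tumor and are not in these ranges. With upper-quartile scaling 5 members were higher between lines, beside 7.92% of genes. With the other factor as a covariate, tumor 29 alone sets the contrast. The members' median log2 fold change was then 0.33 between lines and 0.02 between sites. DESeq2 called 4 members between sites without tumor 18. Library sizes alone moved the median log2 fold change of all genes between lines from 0.0146 to 0.13 and that of members to 0.86, with 41 of 47 above 0. Between sites, Wnt4 and Wnt6, called lower by DESeq2 without tumor 27, had log2 fold changes of 0.03 and 0.13 without tumor 36 (edgeR), and Axin2, called higher by DESeq2 without tumor 29, had -0.82 with line as a covariate (edgeR). No paired analysis was possible because the labels give the 2 groups no shared replicate numbers. Depth limits the low members: 3 counts equal 0.0184 to 0.0579 CPM.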
